A study of Mus musculus with 8 samples.

Results

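Potassium channel genes were taken as the protein-coding genes of the mm9 annotation whose symbol starts with Kcn. The rule found 94 genes of 22225 in all, after 96 gene records of 22367 were reduced to the longest record of each symbol. LaminB1-DamID was carried out in 3T3-L1 cells, an established mouse fibroblast line that forms fat cells in culture. In DamID a bacterial adenine methylase (Dam) fused to LaminB1, a protein of the nuclear envelope, methylates GATC sites of nearby DNA, and free Dam is the control. The 4 conditions were untreated preadipocytes at day 0, adipocytes at day 9 with a control non-target shRNA, adipocytes at day 9 with Tmem120a shRNA, and adipocytes at day 9 with Tmem120a/b shRNA, which targets Tmem120a and its paralog Tmem120b. The last pair are called the single and the double knockdown. Tmem120a encodes a transmembrane protein of the nuclear envelope, and the comparisons ask which genes change position in adipogenesis and which of these changes differ when Tmem120a and Tmem120b are reduced.

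A condition rests on a single pair of libraries, 1 with LaminB1-Dam and 1 with Dam. There was therefore no spread between replicates, and no difference between conditions could be tested. All shares and distances below describe single lists of lamina associated domains (LADs), the regions the authors called as enriched at the nuclear periphery. The lists give positions without scores, so read depth and the strength of a LAD are unknown. The adipocytes came from cells stably carrying an shRNA and received the Dam virus while differentiating, whereas the preadipocytes are labelled untreated, with no shRNA named, so differentiation and the presence of an shRNA vector cannot be told apart in the first comparison. The labelled cell types were not checked against marker genes, because no expression data were used here. The preadipocyte, adipocyte, single knockdown and double knockdown lists held 3914, 2542, 5723 and 6971 LADs, with a median length of 83.2, 103, 59.1 and 60.7 kb, over 1193, 1198, 1164 and 1161 Mb. The knockdown lists thus held more and shorter LADs over a like total length, and whether this bears on the differences from them given below was not tested.

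Potassium channels let potassium ions cross the membrane and hold or restore the resting potential. Voltage-gated (Kv) channels open on depolarisation, inward rectifiers and tandem pore channels set the resting potential, calcium- or sodium-activated channels open when those ions rise in the cell, and accessory subunits change how the pore subunits open and where they go. In fat, Kcnk3 (TASK-1) has been tied to the control of thermogenesis and Kcna3 (Kv1.3) to glucose handling, while many other members are best known from nerve, heart and muscle.

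The Kcn genes were spread over 85 loci, taking genes within 100 kb of each other as 1 locus, and 17 genes lay in the 8 loci that hold several. By symbol, 40 of the 94 genes were grouped as Kv alpha subunits, 15 as inward rectifiers and 14 as tandem pore channels. Another 8 were grouped as calcium- or sodium-activated channels and 17 as accessory subunits. The groups follow the symbol and not how each product opens. Kcnu1 was thus placed with the calcium- or sodium-activated channels, and Kcnrg with the accessory subunits, which took all remaining symbols. Neighbouring genes can share a LAD, so the genes are not independent of each other.

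The first question was how many Kcn genes lay at the periphery in each condition. The gene body met a LAD, by at least 1 bp, for 33 Kcn genes in preadipocytes (35.1%, against 26.2% of all protein-coding genes). In adipocytes it did so for 28 (29.8%, against 23.3%), in the single knockdown for 35 (37.2%, against 27.5%) and in the double knockdown for 37 (39.4%, against 29.6%). Kcn genes thus met LADs more often than the background in each list, and least often in adipocytes with the lists as deposited, as did all genes. The annotated start site, the 5′ end of the gene, lay in a LAD for 29 Kcn genes in preadipocytes (30.9%, against 23.3% of all genes). The number was 25 in adipocytes (26.6%, against 21.2%), 28 in the single knockdown (29.8%, against 22.6%) and 30 in the double knockdown (31.9%, against 23.8%). With LADs under 100 kb left out, bodies numbered 22 in adipocytes and 22 in the single knockdown, and start sites 21 and 19. Adipocytes were then level with the single knockdown by body and above it by start site.

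Most Kcn genes kept 1 state throughout. For 16 genes the start site was in a LAD in all 4 lists (17.0%, against 16.7% of all genes), and for 53 it was in none (56.4%, against 69.6%). By gene body, 20 met a LAD in every list (21.3%, against 19.4%) and 48 in none (51.1%, against 63.7%). The share constantly at the periphery was therefore near the background over all lengths. The excess of Kcn genes lay among those whose state differed between lists. These were 25 by start site (26.6%, against 13.6% of all genes) and 26 by body (27.7%, against 17%). The near match for start sites always in LADs did not hold within length classes. The classes were under 10 kb, 10 to 50 kb, 50 to 200 kb, and 200 kb and over. Kcn shares were 7.69%, 3.03%, 16.7% and 58.8%, against 26.8%, 8.4%, 9.71% and 28.4% of all genes.

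**Figure D1:**
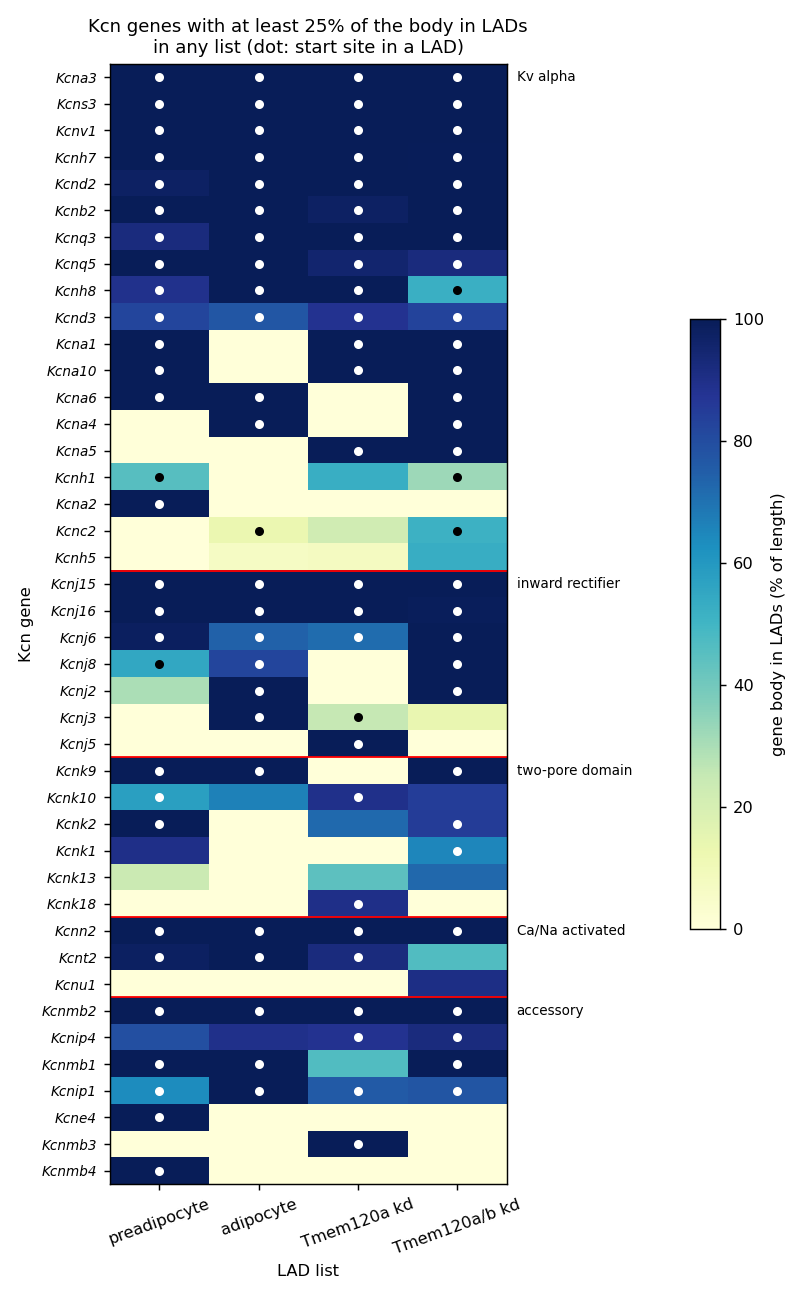
The plot gives, for the 42 Kcn genes with at least 25% of the body in LADs in at least 1 list, the percentage of the gene body in LADs (colour) in each of the 4 lists, and a dot marks a start site in a LAD, with 1 pair of libraries behind each column (Tmem120a kd, single knockdown, and Tmem120a/b kd, double knockdown). Genes are grouped by subfamily, and the 3 genes Kcne4, Kcna2 and Kcnmb4 are dark in the preadipocyte column alone.

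Among Kv alpha subunits, which form the voltage-gated pore, 15 of 40 bodies met a LAD in preadipocytes, 14 in adipocytes, 17 in the single knockdown and 18 in the double knockdown (37.5%, 35%, 42.5% and 45%, against 26.2%, 23.3%, 27.5% and 29.6% of all genes). Of the 16 genes with a start site always in a LAD, 10 were Kv alpha genes, which is 25% of the 40 Kv alpha genes (against 16.7% of all genes). These were Kcna3, Kcnb2, Kcnd2, Kcnd3, Kcnh7, Kcnh8, Kcnq3, Kcnq5, Kcns3 and Kcnv1. Of the 2 annotated starts of Kcnb2, 1 lay in a LAD in the single knockdown, and of the 3 of Kcnd3, 2 did in the double knockdown. Kcnd2 and Kcnd3 encode Kv4 channels that carry the fast transient current of neurons and heart, and Kcnq3 and Kcnq5 encode subunits of the neuronal M current. The 4 Kcng genes, whose products are silent subunits that join Kcnb channels, met no LAD in any list, as did 63.7% of all genes.

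The Kcna genes encode Kv1 channels, which are voltage-gated channels of axons, muscle and lymphocytes. Their start sites changed state in adipogenesis for 4 of 8 genes, of which 3 left (against 3.94% of all genes) and 1 entered (against 1.84%). Start sites of 5 of the 8 Kcna genes lay in LADs in preadipocytes, 3 in adipocytes, 4 in the single knockdown and 6 in the double knockdown, beside 23.3%, 21.2%, 22.6% and 23.8% of all genes. Kcna1, Kcna2 and Kcna10 left LADs in adipocytes and Kcna4 entered one. Only Kcna7 was outside LADs in every list, at 1208 kb from the nearest LAD in both preadipocytes and adipocytes, 623 kb in the single knockdown and 910 kb in the double knockdown.

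Kcna3, Kcna2 and Kcna10 form 1 locus of 159.6 kb at chr3:106839080-106998639 of mm9, all on the + strand. In preadipocytes the whole locus lay in a LAD of 307.9 kb at chr3:106698228-107006080. In adipocytes 2.15% of the locus remained in a LAD, which ended 3.43 kb past the Kcna3 start. Kcna3 (Kv1.3), of 1.97 kb, therefore stayed wholly inside a LAD in all 4 lists while its neighbours did not. The region from that border on, chr3:106842510-107006080, is a deposited released region, that is, a stretch in a LAD of preadipocytes but not of adipocytes, and its 163.6 kb hold Kcna2 and Kcna10.

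In the knockdowns this locus was split. Of the locus, 72.7% lay in LADs in the single knockdown and 70.3% in the double knockdown. The body of Kcna2 (Kv1.2), of 5.31 kb, was wholly (100%) in a preadipocyte LAD and 0% in the other 3 lists, with the nearest LAD 62.0 kb from its start in adipocytes but 7.82 and 7.24 kb in the knockdowns. The body of Kcna10 was 100% in a LAD in preadipocytes, 0% in adipocytes and 100% in both knockdowns. Its start lay 143.5 kb from a LAD in adipocytes, and 29.0 kb inside the border in the single knockdown and 2.93 kb inside it in the double knockdown.

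The start-site upstream sequences of these 3 neighbours are shown because they lay in 1 preadipocyte LAD and then took 3 different states, and those of Kcna4 and Kcne4 because these genes changed state in opposite directions. The sequences are from RefSeq promoters of GRCm38.p6, found in mm9 by their whole sequence, and end at the base before the RefSeq start or the start of the gene record, whichever comes first. They are on the + strand of mm9, at chr3:106838830-106839079 for Kcna3, chr3:106904235-106904484 for Kcna2, chr3:106985811-106985973 for Kcna10, chr2:107130496-107130745 for Kcna4 and chr1:78813236-78813485 for Kcne4. Capitals mark each CpG site.
Kcna3: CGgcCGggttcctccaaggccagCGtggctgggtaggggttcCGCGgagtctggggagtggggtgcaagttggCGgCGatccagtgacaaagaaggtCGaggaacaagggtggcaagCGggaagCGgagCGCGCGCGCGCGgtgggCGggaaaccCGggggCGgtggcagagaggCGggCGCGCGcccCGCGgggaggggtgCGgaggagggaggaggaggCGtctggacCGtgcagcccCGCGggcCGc
Kcna2: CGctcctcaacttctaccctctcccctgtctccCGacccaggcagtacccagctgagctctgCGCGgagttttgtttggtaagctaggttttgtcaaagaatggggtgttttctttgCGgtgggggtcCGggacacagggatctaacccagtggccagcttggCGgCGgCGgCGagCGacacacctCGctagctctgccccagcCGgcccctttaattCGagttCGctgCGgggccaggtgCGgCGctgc
Kcna10: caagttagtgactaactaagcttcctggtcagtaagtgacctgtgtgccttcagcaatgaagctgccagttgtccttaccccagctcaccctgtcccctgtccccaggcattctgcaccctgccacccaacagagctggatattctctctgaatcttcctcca
Kcna4: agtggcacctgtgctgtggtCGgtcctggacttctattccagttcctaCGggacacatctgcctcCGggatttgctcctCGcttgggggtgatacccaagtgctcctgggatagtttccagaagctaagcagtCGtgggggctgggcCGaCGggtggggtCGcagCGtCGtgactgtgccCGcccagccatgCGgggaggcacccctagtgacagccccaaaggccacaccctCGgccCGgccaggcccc
Kcne4: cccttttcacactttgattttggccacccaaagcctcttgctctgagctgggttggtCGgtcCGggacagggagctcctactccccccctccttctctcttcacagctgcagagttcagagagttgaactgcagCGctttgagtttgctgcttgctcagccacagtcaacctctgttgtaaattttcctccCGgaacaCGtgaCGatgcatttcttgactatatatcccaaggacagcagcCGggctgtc

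The stretch of Kcna3, the gene that stayed in LADs, held 31 CpG sites in 250 bases. That of Kcna2, which left and stayed out, held 18 in 250 bases, and that of Kcna10, which left and was in LADs in both knockdowns, held 0 in 163 bases. Kcna4 had 14 and Kcne4 had 7, each in 250 bases. CpG content thus differed across the locus that shared 1 LAD in preadipocytes.

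On chromosome 6, Kcna1 and Kcna6 form a locus of 104.2 kb at chr6:126586481-126690680 and Kcna5 lies just over 100 kb from Kcna1. Kcna1 (Kv1.1) lay in a LAD of 59.4 kb in preadipocytes that holds no other protein-coding gene and was absent from the adipocyte list. Its body was 100%, 0%, 100% and 100% in LADs in preadipocytes, adipocytes, the single knockdown and the double knockdown. Kcna6, beside it, was 100% in LADs in preadipocytes and adipocytes, 0% in the single knockdown and 100% in the double knockdown, so the neighbours were in opposite states in adipocytes and again in the single knockdown. Kcna5 (Kv1.5), a channel of heart and smooth muscle, was 0% in LADs in preadipocytes and adipocytes and 100% in both knockdowns. Its start was 21.1 kb and 21.4 kb inside the border of those knockdown LADs.

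**Figure D2:**
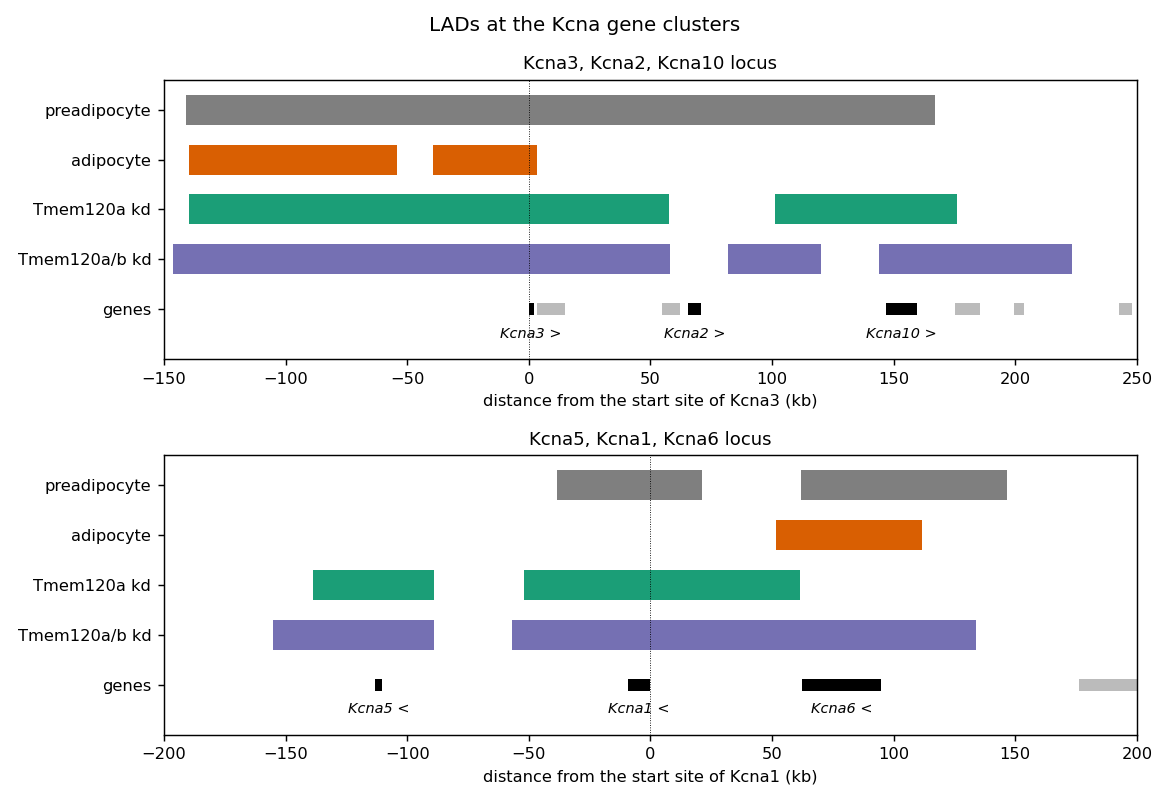
LADs of the 4 lists (coloured bars) are drawn against distance in kb from the start site of Kcna3 (top) and of Kcna1 (bottom), with Kcn genes in black, other protein-coding genes in grey, and > or < for the strand. The adipocyte LAD ends 3.43 kb past the Kcna3 start, and no adipocyte LAD covers Kcna1.

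Kcna4 (Kv1.4), of 7.86 kb at chr2:107130796-107138659, moved the other way. Its body was 0% in LADs in preadipocytes, 100% in adipocytes, 0% in the single knockdown and 100% in the double knockdown. It lay deep in a long adipocyte LAD of 1631 kb, 271.4 kb from the border, and 32.8% of that LAD was in LADs of preadipocytes. In the single knockdown the nearest LAD was 65.3 kb away, and in the double knockdown the start was 8.10 kb inside a border.

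Kcnh1 (Eag1), a Kv channel of neurons and of many tumours, spans 319.4 kb at chr1:194014666-194334041. LADs covered 45.4% of it in preadipocytes, 0% in adipocytes, 52.4% in the single knockdown and 32.2% in the double knockdown. The preadipocyte signal came from 2 separate LADs of 76.1 and 75.8 kb, neither of which met a LAD in adipocytes, where the nearest LAD was 1528 kb from the start. In the double knockdown the start was in a LAD, but only 0.261 kb from its border, and in the single knockdown it was 21.4 kb outside.

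Kcnc2 and Kcnh5 gained partial contact. Kcnc2 (Kv3.2), which supports fast firing of interneurons, had 0% of its 195.2 kb in LADs in preadipocytes, 13.1% in adipocytes, 21.9% in the single knockdown and 51.5% in the double knockdown. Its start was in a LAD in adipocytes and the double knockdown, and 60.6 kb outside in the single knockdown. Kcnh5 (Eag2), of 280.1 kb, had 0%, 6.45%, 7.53% and 53.0% of its body in LADs in the same order. Its start was outside in every list, at 5.56, 262.0, 59.4 and 43.05 kb from the nearest LAD. By this distance the Kcnh5 start was nearer to a LAD in preadipocytes than in adipocytes. Both adipocyte contacts were LADs with no counterpart in preadipocytes, of 57.3 kb at Kcnc2 and 22.3 kb at Kcnh5.

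LAD borders follow the sites that Dam methylates. To show the resolution, 40 bases around a border are given for the adipocyte border that separates Kcna3 from Kcna2 (chr3:106842490-106842529), the preadipocyte border 7.03 kb before the Kcnh1 start (chr1:194007617-194007656) and the adipocyte border inside Kcnc2, 25.5 kb from its start (chr10:111733655-111733694). All are + strand of mm9, with the GATC at the border in capitals.
Kcna3 border: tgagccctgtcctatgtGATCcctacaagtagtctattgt
Kcnh1 border: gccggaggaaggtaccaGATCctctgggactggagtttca
Kcnc2 border: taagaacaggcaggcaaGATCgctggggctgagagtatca

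Of the borders in the 4 lists, 98.3%, 97.3%, 98.9% and 99.1% fell at a GATC.

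Among inward rectifiers, 5 of 15 bodies met a LAD in preadipocytes, 6 in adipocytes, 5 in the single knockdown and 6 in the double knockdown (33.3%, 40%, 33.3% and 40%, against the same all-gene shares of 26.2%, 23.3%, 27.5% and 29.6%). Start sites of 0 of 15 left LADs in adipocytes (3.94% of all genes left), and 2 entered (against 1.84%). Kcnj3 (Kir3.1), the G-protein-gated channel of atrium and neurons, lies at chr2:55288381-55450556. Its 162.2 kb were 0% in LADs in preadipocytes, 100% in adipocytes, 25.1% in the single knockdown and 13.8% in the double knockdown. In preadipocytes LADs flanked it on both sides, the nearer 27.5 kb from the start, and in adipocytes a single LAD of 2487 kb covered gene and flanks, 83.2% of which was in preadipocyte LADs. Kcnj3 was thus a gap in a peripheral domain that closed in the adipocyte list and was largely open in both knockdown lists. In the single knockdown the start itself was still in a LAD, 35.8 kb from the border, and in the double knockdown it was 25.1 kb outside.

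Kcnj2 (Kir2.1), which stabilises the resting potential of muscle and heart, was covered for 29.7%, 100%, 0% and 100% of its 10.7 kb. Its start went from 7.49 kb outside a preadipocyte LAD to 3.28 kb inside an adipocyte LAD. No deposited differential region meets Kcnj2. Its neighbour Kcnj16 was at least 98.9% in LADs in all 4 lists. Kcnj6 and Kcnj15 also had start sites, taken as the 5′ end of the gene, in LADs throughout. Of the 3 annotated starts of Kcnj6, 3, 3, 1 and 3 lay in LADs in the 4 lists. Kcnj6 went from 98.1% of its body in LADs in preadipocytes to 73.9% in adipocytes, 71.4% in the single knockdown and 100% in the double knockdown.

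Of the ATP-sensitive channels, Kcnj11 (Kir6.2), known from the pancreatic beta cell, was outside LADs in every list. Its start was 1067, 1077, 17.3 and 215.4 kb from the nearest LAD in the 4 lists. Kcnj8 (Kir6.1), of vascular smooth muscle, was covered for 54.8%, 82.1%, 0% and 100% of its 6.42 kb. It lay close to a border in each list, 3.52 and 5.27 kb inside in preadipocytes and adipocytes, 15.6 kb outside in the single knockdown and 20.6 kb inside in the double knockdown.

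Tandem pore channels carry background potassium current. Their bodies met a LAD for 5 of 14 genes in preadipocytes, 2 in adipocytes, and 5 in each knockdown (35.7%, 14.3%, 35.7% and 35.7%, against 26.2%, 23.3%, 27.5% and 29.6% of all genes). None had its start in a LAD in all 4 lists (against 16.7%). Kcnk2, Kcnk1 and Kcnk13 left LADs by body, and Kcnk2 and Kcnk10 by start site (3 and 2 of 14, against 4.82% and 3.94% of all genes). None entered, where 1.88% of all bodies and 1.84% of all start sites did. Kcnk2 (TREK-1), a stretch- and lipid-sensitive channel, had 100% of its 135.9 kb in LADs in preadipocytes, 0% in adipocytes, 72.0% in the single knockdown and 85.1% in the double knockdown. Its preadipocyte LAD of 408.2 kb, at chr1:191030453-191438683, was kept for 19.97% of its length in adipocytes, and the nearest adipocyte LAD began 7.01 kb upstream of the Kcnk2 start. In the single knockdown the start was 6.12 kb outside a LAD that covered most of the body, so the body share and the start state gave different answers for this gene, whereas in the double knockdown the start was 55.5 kb inside.

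**Figure D3:**
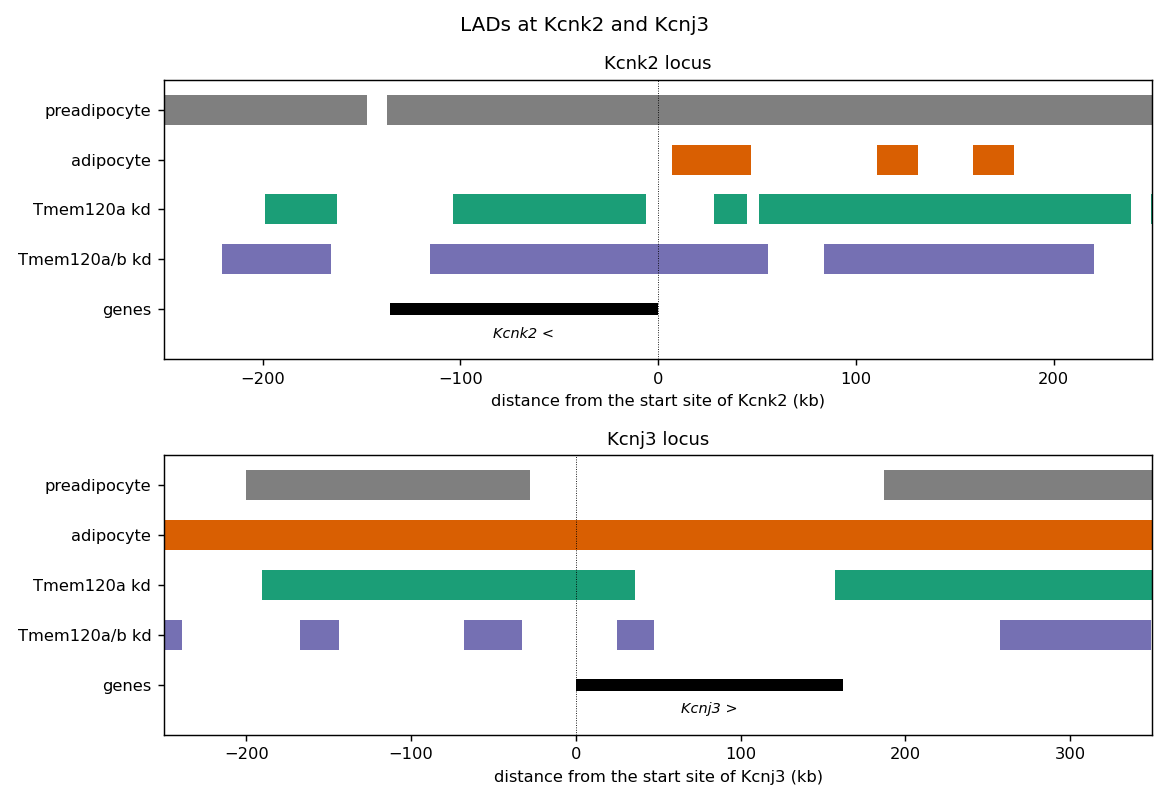
LADs of the 4 lists (coloured bars) are drawn against distance in kb from the start site of Kcnk2 (top) and Kcnj3 (bottom), with the gene in black and > or < for its strand. Kcnk2 lies in no adipocyte LAD and Kcnj3 lies wholly in one, and both knockdown lists cover a part of each gene.

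The body of Kcnk1 (TWIK-1) was covered for 89.5% in preadipocytes, 0% in adipocytes and the single knockdown, and 64.9% in the double knockdown. Kcnk13 (THIK-1) had 23.8%, 0%, 44.2% and 72.5% in the same order, and in adipocytes its start was 1146 kb from any LAD. Both contacts in preadipocytes were whole LADs, of 76.6 and 23.3 kb, that had no overlap with the adipocyte list. Kcnk10 (TREK-2) went against the others, since its start left a LAD in adipocytes, where it was 3.46 kb outside, while the covered share of its body went from 57.7% to 66.2%. It was 89.2% in the single knockdown and 84.6% in the double knockdown. Of its 3 annotated starts, 3, 1, 3 and 0 lay in LADs in the 4 lists.

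Kcnk9 (TASK-3) was 100% in LADs in preadipocytes, adipocytes and the double knockdown and 0% in the single knockdown. Its relative Kcnk3 (TASK-1) was far from LADs in every list, at 1015, 1328, 809.6 and 730.1 kb. Of the channels with a described role in fat, Kcnk3 was therefore always outside LADs and Kcna3 always inside.

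Calcium- or sodium-activated channels met LADs by body for 2 of 8 genes in preadipocytes, 2 in adipocytes, 2 in the single knockdown and 4 in the double knockdown (25%, 25%, 25% and 50%, against 26.2%, 23.3%, 27.5% and 29.6% of all genes). Kcnn2 (SK2), at 417.0 kb, was wholly in LADs in all 4 lists. Of these 8 genes 0 left or entered LADs in adipocytes, and with 3.94% of all start sites leaving and 1.84% entering nothing is read from this. Kcnt2 (Slick), a sodium-activated channel, had 97.9%, 100%, 92.0% and 46.6% of its body in LADs, and its start was outside in the double knockdown alone, by 12.1 kb. Kcnma1 (BK), the large-conductance channel, met a LAD in the double knockdown alone, for 17.4% of its 504.5 kb, and Kcnu1, the sperm channel, likewise for 90.5%. Kcnn4 (KCa3.1) was in no LAD in any list, nor was the Kv alpha gene Kcnq1, whose start was 132.6 kb from a LAD in preadipocytes and 2315 kb in adipocytes.

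Accessory subunits met LADs for 6 of 17 genes in preadipocytes, 4 in adipocytes, 6 in the single knockdown and 4 in the double knockdown (35.3%, 23.5%, 35.3% and 23.5%, against 26.2%, 23.3%, 27.5% and 29.6% of all genes). Kcne4, a small membrane protein that dampens Kv1 channels, and Kcnmb4, the neuronal beta subunit of the BK channel, were each covered for 100% in preadipocytes and 0% in the other 3 lists. They differed in what became of the LAD. At Kcne4, 96.3% of the preadipocyte LAD of 882.7 kb was in adipocyte LADs, and the gene lay in a released stretch of 32.4 kb inside it (chr1:78801737-78834181), 11.8 kb from the nearest adipocyte LAD. At Kcnmb4 the whole LAD of 73.7 kb, which meets 1 more protein-coding gene, had no overlap with the adipocyte list or with either knockdown list. All 4 Kcnmb genes had their start in a LAD in at least 1 list, while 69.6% of all genes had it in none.

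Kcnip4 and Kcnip1 encode calcium-binding partners of Kv4 channels. Kcnip4, the longest Kcn gene at 1135 kb, had 79.1%, 89.2%, 88.1% and 91.9% of its body in LADs, with its start outside in preadipocytes and adipocytes and 13.4 and 9.74 kb inside in the knockdowns. This rests on 1 of its 5 annotated starts, as the other 4 lay in LADs in all 4 lists. Kcnip1 had 63.6%, 100%, 75.9% and 77.7%. Kcnmb1, the BK beta subunit of smooth muscle, lies within Kcnip1 on the opposite strand and was covered for 100%, 100%, 46.7% and 100% of its length.

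The next question was how many Kcn genes changed in adipogenesis. By body, 9 Kcn genes met a LAD in preadipocytes and none in adipocytes (9.57%, against 4.82% of all genes), and 4 did the reverse (4.26%, against 1.88%). By start site, 8 left (8.51%, against 3.94%) and 4 entered (4.26%, against 1.84%). Both directions were thus more frequent among Kcn genes than in the background, and leaving was more frequent than entering in both. With so few genes a change in 1 or 2 of them moves these shares by a good part of the difference.

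By body, with at least 1 bp of overlap, the deposited differential regions gave equal counts in both directions. Kcn bodies met a released region for 10 genes (10.6%, against 5.76%), the 9 that left by body and Kcnj6. They met a recruited region, a stretch in a LAD of adipocytes but not of preadipocytes, for another 10 (10.6%, against 3.08%). These were Kcnj3, Kcna4, Kcnip4, Kcnd2, Kcnc2, Kcnip1, Kcnh5, Kcnk10, Kcnq3 and Kcnh8. Only Kcnj3 and Kcna4 lay in recruited regions for their whole body, and in the others the share was between 2.42% for Kcnd2 and 36.4% for Kcnip1. All 8 of these others are at least 143.9 kb long, so the count leans on long genes. It was 2 when at least 50% of the body had to lie in the region and 5 with regions of at least 30 kb. Bodies in released regions numbered 7 and 9 under the same rules, so the counts were then not equal. Start sites lay in a released region for 7 genes (7.45%, against 3.51%) and in a recruited region for 3 (3.19%, against 1.48%).

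The knockdown lists were then read for the genes that had changed. The comparisons share the preadipocyte and adipocyte lists. Of the 8 start sites that left LADs, 3 lay in a LAD in the single knockdown (Kcna10, Kcna1 and Kcnk10), against 31.8% of all start sites that left, and 4 in the double knockdown (Kcnk2, Kcnh1, Kcna10 and Kcna1), against 44.5%. Kcna1 and Kcna10 were the start sites back in LADs in both knockdowns, and Kcne4, Kcna2 and Kcnmb4 were in neither. The count in the single knockdown was 1 of 7 with LADs of at least 100 kb and 5 of 7 with gaps under 50 kb closed. The share of all genes is given for the lists as deposited alone, so the count has no firm place against it.

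Of the 4 start sites that entered, 3 were in no LAD in the single knockdown (Kcna4, Kcnc2 and Kcnj2), against 49.1% of all that entered, and 1 in the double knockdown (Kcnj3), against 52.6%. No start site that entered was outside in both knockdowns. The same 3 genes that were outside in the single knockdown were inside in the double knockdown, and Kcnj3 was the reverse. With LADs of at least 30 kb, start sites that entered and lay in none in the double knockdown numbered 2 of 4. By body, 1 of the 4 genes that entered was in no LAD in the single knockdown (Kcna4, against 39.8%) and 0 in the double knockdown (against 42.7%). These body counts turn on the overlap rule, as they were 3 of 3 and 1 of 3 when at least 50% of the body was required, and once LADs under 30 kb were left out the count in the double knockdown was 2 of 3. Of the 9 bodies that left, 5 met a LAD in the single knockdown (55.6%, against 41.5%) and 6 in the double knockdown (66.7%, against 55.4%). In the single knockdown this became 2 of 7 with LADs of at least 100 kb and 3 of 7 with at least 50% of the body.

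Start sites with an unchanged state in adipogenesis also differed in the knockdowns. Of 61 outside LADs in both preadipocytes and adipocytes, 7 were in a LAD in the single knockdown (11.5%, against 3.35%) and 3 in the double knockdown (4.92%, against 4.7%). The 7 included Kcnmb3, Kcnip4, Kcna5, Kcnj5, Kcnk5 and Kcnk18, and the 3 were Kcnip4, Kcna5 and Kcnk1. Of 21 in LADs in both, 4 were in none in the single knockdown (against 7.98%), namely Kcna6, Kcnj8, Kcnmb1 and Kcnk9, and 1 in the double knockdown (4.76%, against 8.9%), Kcnt2. With the lists as deposited, counts in the single knockdown were thus above the background in both directions. Those in the double knockdown were near or below it. These counts were not recomputed under other LAD rules. With LADs under 100 kb left out, all Kcn start sites in LADs numbered 19 against 28 in the single knockdown. In the double knockdown they numbered 22 against 30. Whether the contrast between the knockdowns would remain is therefore unknown.

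Several states found in the single knockdown list alone were close to a border. Among the 5 start sites in a LAD in that list alone, those of Kcnj5, Kcnk5, Kcnmb3 and Kcnk18 were 0.576, 0.688, 3.1 and 15.9 kb inside it. Kcnj5 and Kcnmb3 were nevertheless wholly covered by a LAD, Kcnk18 for 89.5% and Kcnk5 for 1.65%. Of all 94 start sites, 10 lay within 25 kb of a LAD border on either side in preadipocytes (10.6%, against 10.9% of all genes), 8 in adipocytes (8.51%, against 7.02%), 20 in the single knockdown (21.3%, against 13.7%) and 22 in the double knockdown (23.4%, against 16.1%). Start sites outside LADs were at a median of 514.0, 745.3, 325.9 and 226.1 kb from the nearest LAD, against 374.8, 520.7, 240.7 and 209.5 kb over all genes.

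Counts were also split by gene length. Kcn genes had a median length of 28.1 kb against 15.5 kb over all genes. In adipocytes the body met a LAD for 4 of 26 Kcn genes under 10 kb (15.4%, against 32.2% of all genes of that length), 5 of 33 of 10 to 50 kb (15.2%, against 12.8%), 6 of 18 of 50 to 200 kb (33.3%, against 19.4%) and 13 of 17 of 200 kb and over (76.5%, against 52.5%). By start site, which is a single position in a gene of any length, the classes had 4, 5, 5 and 11 genes in LADs (15.4%, 15.2%, 27.8% and 64.7%, against 32.0%, 11.5%, 14.3% and 39.2%). Short Kcn genes were thus below and long ones above the genes of like length on both measures, and the excess was larger from 50 kb up.

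**Figure D4:**
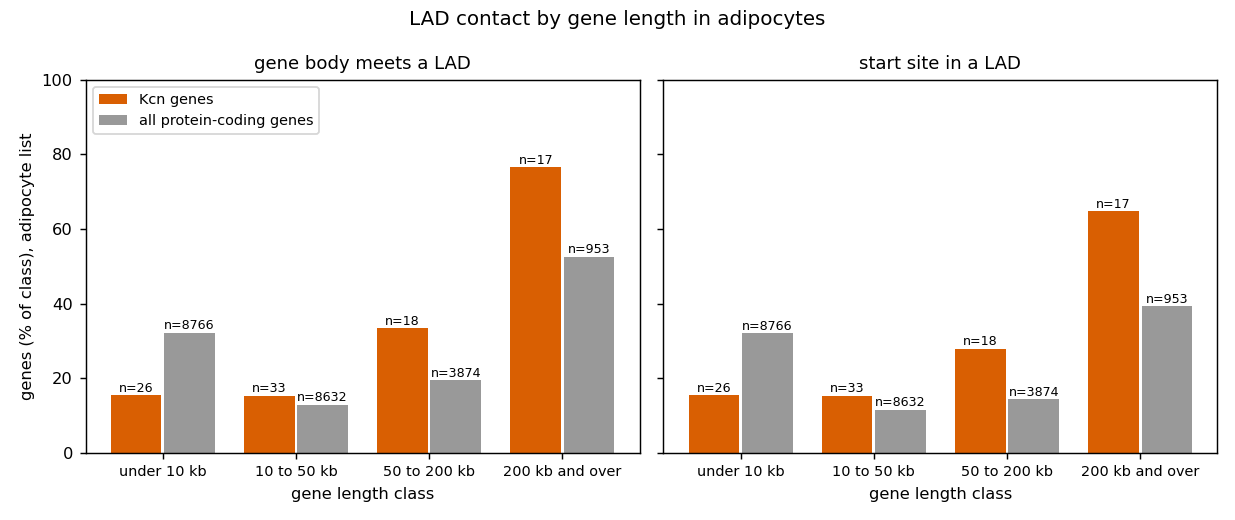
Bars give the percentage of genes in each length class whose body meets a LAD (left) or whose start site lies in one (right) in the adipocyte list, for Kcn genes and all protein-coding genes, with the number of genes above each bar and no error bars as there is 1 list. Kcn genes of 200 kb and over stand at 76.5% and 64.7%, against 52.5% and 39.2% of all genes of that length.

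The same held in the other lists for the ends of the range. Bodies of Kcn genes under 10 kb met LADs for 23.1%, 15.4% and 23.1% in preadipocytes and the 2 knockdowns, against 33.9%, 33.3% and 34.6%, and those of 200 kb and over for 76.5%, 88.2% and 88.2%, against 58.0%, 64.5% and 68.0%. Only 1 of the 17 longest Kcn genes, Kcnq1, met no LAD in any list (5.88%, against 24.8% of all genes of that length). The 5 longest were Kcnip4, Kcnq5, Kcnd2, Kcnma1 and Kcnh7, and of these all but Kcnma1 were at least 79.1% in LADs in every list.

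The sequence around the start sites was not used by the rule. In 300 bases of mm9, from 250 before to 50 after the start of the gene record, the 16 Kcn genes always in LADs held a median of 14 CpG sites, the 25 in some lists 14 and the 53 in none 13. Over all protein-coding genes the medians were 2, 6 and 16. Windows with 15 or more CpG sites numbered 8 of 16, 12 of 25 and 25 of 53 in the Kcn groups, against 8.68%, 28.8% and 54.8% of all genes. The CpG content of Kcn start sites therefore hardly followed their LAD state, while that of all genes did. Kcna3, with 31 sites in the stretch printed above, is an example of a CpG-rich start in a LAD. The groups were not matched by length. Of genes always in LADs, 2 of 16 Kcn genes but 2349 of 3721 genes in all were under 10 kb. CpG sites were not counted for other channel families, so the contrast is not shown to be particular to Kcn genes. The letters TATAAA, on either strand, occurred in 4 of the 94 Kcn windows (4.26%, against 13.4% of all windows). The letters GATC, the site read by DamID, occurred in 53.2% of Kcn windows and 46.2% of all.

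**Figure D5:**
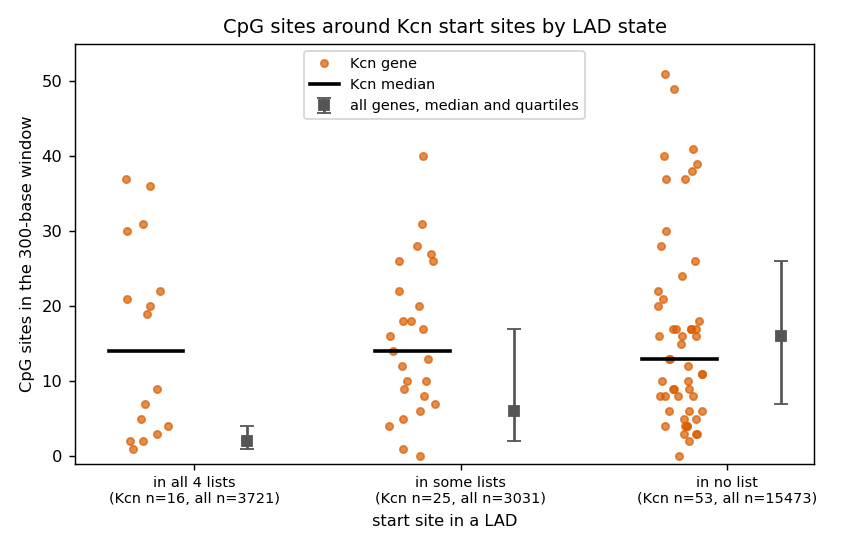
Points give the number of CpG sites in the 300-base window around each Kcn start site, by whether the start lies in a LAD in all 4 lists, in some or in none, with the Kcn median as a line and the median and quartiles of all protein-coding genes as a square with bars. The Kcn medians are 14, 14 and 13, against 2, 6 and 16 for all genes.

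Other channel families are set beside the Kcn genes for scale. Start sites in a preadipocyte and an adipocyte LAD made up 35.7% and 35.7% of 14 sodium channel genes, 15.4% and 7.69% of 26 calcium channel genes, and 11.1% and 11.1% of 9 chloride channel genes. Of 10 HCN and cyclic nucleotide gated channel genes, 2 were in LADs in each. The 48 glutamate and GABA receptor genes had 60.4% and 56.2%. With 30.9% and 26.6%, Kcn genes lay between these families, and the differences were not tested. Start sites that left numbered 3 of 14 sodium channel genes, 3 of 26 calcium channel genes, 4 of 48 glutamate and GABA receptor genes, 0 of 10 HCN and cyclic nucleotide gated channel genes and 0 of 9 chloride channel genes, beside 8 of 94 Kcn genes and 3.94% of all genes. Start sites that entered numbered 3, 1, 2, 0 and 0 in the same order, beside 4 of 94 Kcn genes and 1.84% of all genes, so sodium channel genes had higher shares than Kcn genes in both directions.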

How the data were processed

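LaminB1-DamID was measured in 8 libraries, 1 Dam and 1 LaminB1-Dam in each of 4 conditions. Per the study's methods and the submitters' processing notes (BWA, limma), the authors mapped reads to mm9, took the log2 ratio of LaminB1-Dam to Dam per DpnI fragment, and called LADs with DNAcopy. They deposited 4 LAD lists and 2 lists of differential regions, each a list of start and end positions with no score. Conditions were matched to lists through the abbreviations of the lists. Every differential region lay wholly in LADs of its own list and outside those of the other, and the authors' threshold for choosing them is not given in the sources used here. Lists were read as counting from 0.

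Genes were those of GENCODE vM1 on mm9 (NCBIM37), on 21 chromosomes. Overlaps were computed by bp with Python 3.11.15 and numpy 2.4.6 and plotted with matplotlib 3.10.9, and the interval code was checked on simulated intervals. A body met a LAD with at least 1 bp. No test was run, because each condition had 1 pair of libraries and genes are not replicates. Counts are given beside all protein-coding genes.  Named genes were those whose state differed between preadipocytes and adipocytes or that met a differential region, the 5 longest, those differing in both knockdowns, and Kcnk3, Kcnma1, Kcnj8, Kcnj11, Kcna3, Kcnn4 and Kcnq1. Other genes, such as Kcna7, Kcnk9, Kcnn2, Kcnt2 and Kcnu1, were named after their values were seen, and 1 member is counted but not reported here by name. The members and lists were chosen with earlier results of these data known. RefSeq promoters (GRCm38.p6) were in the table for 72 Kcn genes, 69 were found in mm9 by whole sequence, and 63 lay within 1 kb of the start of the gene record. Protein sequences were not used here, so the planned count of pore motifs was not run. Kcng2 is annotated as a short record, and its values rest on that record.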

Additional observations from a re-analysis of the deposited data

How the results depend on the processing

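No paired analysis was possible because each condition had 1 LaminB1-Dam and 1 Dam library and no test was run. Over 24 counts of Kcn genes, 124 of 138 alternative values stayed within 1.5 times the value reported and 14 moved further, most of them counts of 5 or fewer. With LADs of at least 100 kb alone, bodies meeting a LAD in the single knockdown numbered 22 against 35, bodies that entered 2 against 4, bodies that left and met a LAD in the single knockdown 2 against 5, and start sites that left and lay in one there 1 against 3. With LADs of at least 30 kb and of at least 100 kb, bodies that entered and met no LAD in the double knockdown numbered 2 and 2 against 0, and start sites 2 and 2 against 1. With at least 50% of the body required, bodies that left and met a LAD in the single knockdown numbered 3 against 5, bodies that entered and met none there 3 against 1, bodies that entered and met none in the double knockdown 1 against 0, and bodies in a recruited region 2 against 10. With gaps under 50 kb closed, start sites that left and lay in a LAD in the single knockdown numbered 5 against 3. With differential regions of at least 30 kb, bodies in a recruited region numbered 5 against 10. Some of these counts fell and others rose under the stricter rules, and what lies behind each move was not tested. Leaving out chromosome X, run for 20 counts, could move none of them, since its Kcn genes, Kcnd1 and Kcne1l, met no LAD in any list. These 20 values are among the 124 and say nothing about stability. Counting 1 gene per locus, run for 20 counts, moved none beyond 1.5 times, nor did widening the start site by 5 kb, run for 8. The same held for any annotated start, run for 10, and every gene record, run for 4, both added after seeing the data. Without replicates, the error of a LAD call between cultures is unknown, and the lists give no depth. States within a few kb of a border rest on 1 border call.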

Other observations

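Genes for partners of potassium channels, listed by symbol, were not covered above. Of the 9 genes, bodies of 6, 6, 5 and 5 met a LAD in preadipocytes, adipocytes, the single knockdown and the double knockdown (66.7%, 66.7%, 55.6% and 55.6%, against 26.2%, 23.3%, 27.5% and 29.6% of all genes). Amigo1, a partner of Kcnb channels, was at 0% in all 4 lists. Dpp10 and Dpp6, transmembrane partners of Kv4 channels, lay largely in LADs. Of the 3 Kv4 genes, Kcnd2 and Kcnd3 lay largely in LADs too, and Kcnd1 was at 0% in all 4 lists. Dpp10 was 100% in LADs in all 4 lists and Dpp6 between 91.5% and 94.1%. Abcc9 encodes SUR2, the partner of Kcnj8, and its body was covered for 100%, 65.5%, 74.0% and 96.5% in preadipocytes, adipocytes, the single knockdown and the double knockdown, with its start in a LAD in preadipocytes alone. Abcc8, which encodes SUR1, the partner of Kcnj11, was in no LAD in any list, as was Kcnj11. Abcc8 and Kcnj11 both lie on chromosome 7, and Abcc9 and Kcnj8 both on chromosome 6. Neighbouring genes can share a LAD, and the distance within these pairs was not computed. Of the BK gamma subunits, Lrrc26 was outside in every list, Lrrc52 was covered for 65.7%, 100%, 100% and 100%, and Lrrc55 for 47.8%, 100%, 18.2% and 0%. Lrrc38 was covered for 100% in 3 lists and 0% in the single knockdown, the states that Kcnk9 and Kcna6 also had.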
